A study of Mus musculus with 20 samples.

Results

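The resting liver of mice whose hepatocytes lack Eed was set against the regenerating liver of wild-type mice, gene by gene, to describe which part of the response to liver resection the knockout shows without an operation and which part it lacks. The libraries were chosen by genotype and collection time alone: the 5 EedHepKO libraries at baseline (0 h) and the 5 wild-type (WT) libraries taken 30 h (1 library), 40 h (2 libraries) or 48 h (2 libraries) after partial hepatectomy (PHx), 10 of the 20 libraries in the series. All mice were males of 2 months on a C57BL/6J background. EedHepKO animals carried a Cre transgene driven by the albumin promoter and Eed alleles with loxP sites around exons 3 and 6, so that Eed is deleted in hepatocytes and in any other cell in which that promoter is or was active. WT mice were bought, and the knockouts were bred from the crossed Cre and floxed strains, with no littermate controls named in the labels. Baseline RNA came from lobes 1, 2 and 3, which PHx removes, and RNA after PHx came from lobes 4, 5 and 6. Genotype, breeding, operation and lobe therefore differ together between the groups and cannot be told apart. The 5 WT libraries at baseline serve as the unoperated background, and the 5 EedHepKO libraries after PHx entered no comparison here but were part of the filter, the scaling and the estimate of the spread.

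When part of the liver is removed, hepatocytes that had been quiescent pass G1 under D-type and E-type cyclins, copy their DNA and divide, while they keep supplying plasma proteins and change their handling of fat and amino acids. EED is a core subunit of polycomb repressive complex 2 (PRC2), which places a repressive methyl mark on histone tails and keeps developmental regulators and some cell cycle inhibitors, such as Cdkn2a, silent. Alb, Ttr and Hnf4a mark hepatocytes, while stellate cells make matrix and Kupffer cells are the resident macrophages.

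Read totals were 21675991 to 27294004 counts in the EedHepKO libraries at baseline and 23240623 to 28398878 in the WT libraries after PHx, so the groups were sequenced to a like depth. Values below are counts scaled to library size (CPM) by the trimmed mean of M-values (TMM), listed for WT mice 1 (30 h), 2 and 3 (40 h), 4 and 5 (48 h), and for EedHepKO mice 7, 8, 10, 11 and 12, always in that order. Eed itself (ENSMUSG00000030619, chromosome 7, 89954654 to 89980983) was at 23.2, 16.8, 15.2, 14.6 and 22 CPM in the WT livers after PHx and 6.5, 7.52, 3.83, 5.57 and 4.79 CPM in the resting knockout. Every EedHepKO library lay below every WT library, with a log2 difference (knockout minus WT) of -1.70 (SE 0.22, edgeR adjusted p 2.56e-05). Counts per gene do not separate reads of other cells or of the retained exons. Coordinates are those of GENCODE M21 on GRCm38 (mm10). The strand setting is not given in the sources used here, so reads of genes that overlap a partner on the other strand, among them Eed, Ccnd1, Ccnd2, Nrg4, Prox1 and Igf2bp3, may include reads of that partner. Hepatocyte markers were abundant in all 10 libraries: Alb, the main plasma protein, gave log2 -0.10 (edgeR adjusted p 0.827), and Hnf4a, a central hepatocyte transcription factor, gave log2 -0.12 (edgeR adjusted p 0.724). Of 11 defining hepatocyte genes, 1 was called higher and 2 lower in the resting knockout, counts too small to set against the shares of all genes given below; the lower count was 0 without WT mouse 4 and 1 without EedHepKO mouse 7, 10, 11 or 12 or WT mouse 2 or 3, and the higher count was 2 without WT mouse 1.

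In the direct comparison, 14661 genes were tested and 3188 were called at an edgeR adjusted p under 0.05. The resting knockout was higher for 1774 (12.1% of the genes tested) and lower for 1414 (9.64%), and the median log2 difference over all genes was -0.05. With an absolute log2 difference of at least 1, the counts were 1502 higher and 656 lower. Scaling by library size alone gave 1845 higher and 751 lower. Of its calls 71.1% were higher, where 55.6% were with TMM, and it moved the median over all genes by 0.12. The count of lower genes rested most on WT mouse 4 (812 without it), EedHepKO mouse 10 (844) and EedHepKO mouse 11 (879). For 1737 genes (11.8%) every knockout library lay above every WT library, and for 903 (6.16%) every one lay below. Beside this, the WT response to PHx held 1677 genes higher (11.4%) and 1273 lower (8.68%) than at WT baseline, and with the mouse as a replicate block 889 and 1104. The resting difference between genotypes held 1631 higher (11.1%) and 717 lower (4.89%) in the knockout. Scaled by library size alone, the WT response was 3796 higher and 582 lower and the resting difference 3521 higher and 113 lower. The resting count of lower genes ranged from 309 (without EedHepKO mouse 7) to 724 over single omissions, and EedHepKO mice 10 (417) and 11 (465) and WT baseline mice 3 (426), 4 (422) and 5 (476) also moved it by more than 1.5 times. The WT count of lower genes was 755 without WT mouse 4 after PHx. These comparisons share libraries with the direct one, so their values are set side by side and no overlap is drawn from them.

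Among the genes furthest above WT in the resting knockout were several with no count in regenerating WT liver. Adh6a, an alcohol dehydrogenase, had 65.7, 57.4, 22.7, 16 and 14.5 CPM in the knockout and no count in any WT library after PHx. This is at least 1581-fold higher, taking 3 counts over the WT group as the floor. Hoxa10 and Hoxa13, homeobox factors that pattern the trunk and limbs, were at 9.85 to 13.6 and 3.53 to 9.41 CPM in the knockout and at 0 in the WT group, bounds of at least 501-fold and 253-fold higher. Sult2a2, a steroid sulfotransferase (bound 557-fold), and Fabp6, a bile acid binding protein of the ileum (bound 311-fold), behaved alike. Sult2a2 has close copies in its gene cluster, and reads may be divided among them.

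The genes furthest below WT in the resting knockout were of several kinds, among them acute phase genes and metallothioneins, described further on. Cidec, a protein that enlarges lipid droplets, was at 16.9, 747, 172, 419 and 4.74 CPM in the WT livers and 3.88, 1.23, 1.17, 1.08 and 0.563 CPM in the knockout, a log2 difference of -7.40 (SE 1.21, edgeR adjusted p 0.000293). The groups did not overlap, and within the WT group mice 2 and 4 stood far above mice 1 and 5. Nrg4, a ligand of the ERBB4 receptor, was at 18.7, 25.8, 26.3, 138 and 15.2 CPM in the WT livers and 1.43, 3.13, 2.07, 2.62 and 3.19 CPM in the knockout, with a log2 difference of -4.17 (SE 0.56, edgeR adjusted p 4.77e-05). Its level in the knockout was that of WT baseline (1.63 to 2.88 CPM), and WT mouse 4 was the highest after PHx. Bmper, a secreted modulator of bone morphogenetic proteins, gave log2 -3.80 (edgeR adjusted p 0.000305). Dlgap2, a synaptic scaffold gene with 0.0872 to 8.87 CPM after PHx, had no count in the knockout, at least 149-fold lower; other transcripts overlap it.

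**Figure D1:**
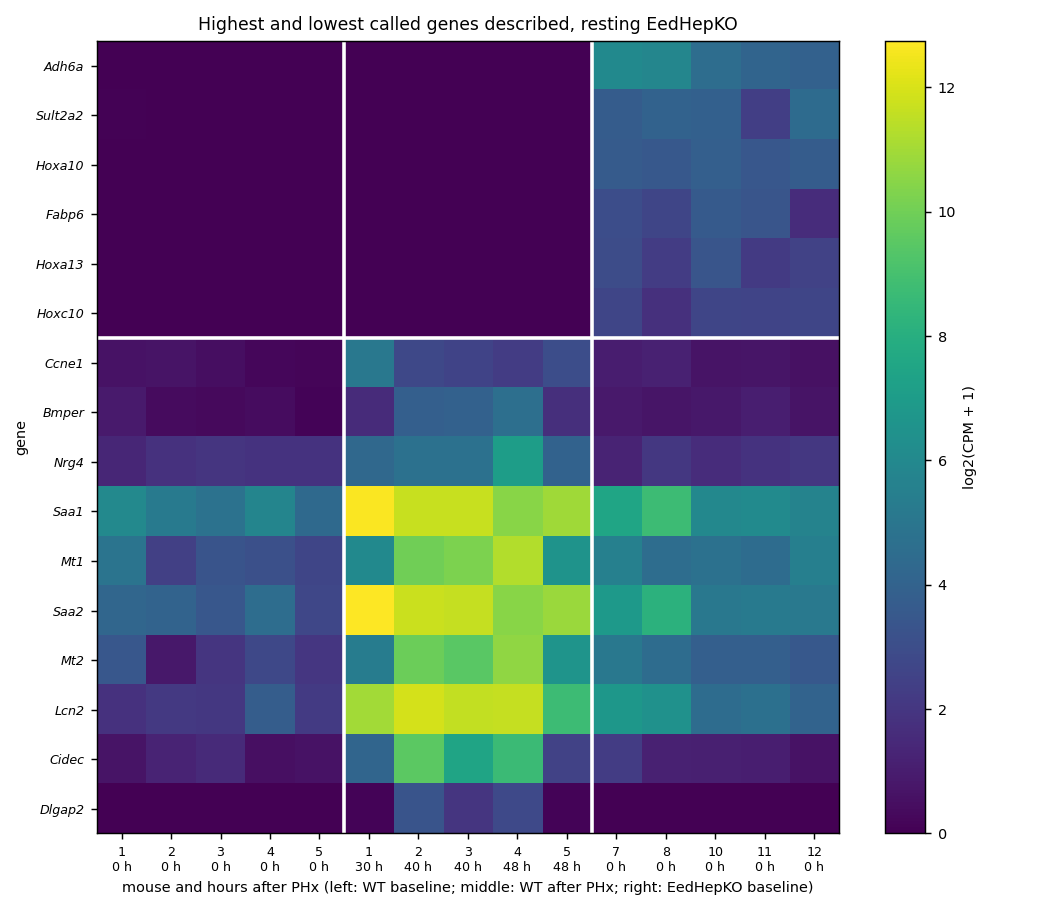
Scaled counts of the genes described here among the 12 furthest above and 12 furthest below in the direct comparison (rows), in the WT baseline, WT after PHx and EedHepKO baseline libraries (columns, mouse numbers and hours below). Colour is log2(CPM + 1); the upper rows are near 0 in all 10 WT libraries, and the lower rows are higher after PHx than in the baseline groups.

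Among G1 cyclins, the resting knockout had Ccnd2 above and Ccne1 below the level in regenerating liver, and Ccnd1 was not called. Ccnd1, the D-type cyclin that drives hepatocytes out of quiescence, was at 298, 42.7, 156, 4.32 and 175 CPM in the WT livers after PHx and 164, 123, 258, 206 and 327 CPM in the resting knockout, against 17.5 to 29.9 CPM at WT baseline. The groups overlapped, with WT mouse 4 the lowest of all and knockout mouse 12 the highest. The log2 difference was 0.67 (SE 0.71, edgeR adjusted p 0.514), with a 95% interval of -0.80 to 2.15. Each group exceeded WT baseline, with log2 2.56 (edgeR adjusted p 0.0206) for WT after PHx and 3.23 (edgeR adjusted p 0.00701) for the knockout. Ccnd2, another D-type cyclin, was at 14.5, 2.22, 3.92, 2.87 and 7.14 CPM after PHx and 27.1, 20.0, 30.5, 34 and 20.2 CPM in the knockout. Every knockout library was above every WT library (log2 2.11, edgeR adjusted p 0.0045).

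Ccne1, an E-type cyclin that acts at the entry to DNA synthesis, was at 34, 5.7, 4.95, 3.83 and 7.04 CPM after PHx and 0.996, 1.27, 0.621, 0.623 and 0.469 CPM in the knockout. The groups did not overlap, the 30 h library was the highest, and the log2 difference was -3.79 (SE 0.61, edgeR adjusted p 0.000258). Against WT baseline the knockout was not called in this gene (log2 1.12, edgeR adjusted p 0.251). E2f3, a factor that activates genes of DNA synthesis, was also lower in the knockout (log2 -0.97, edgeR adjusted p 0.00812) and near its WT baseline level. Myc, an early regulator of growth, gave log2 0.16 (edgeR adjusted p 0.873). Of 22 genes of G1 entry, 1 was higher, 3 were lower and 18 were not called. The lower share of 13.6% is near the 9.64% of all genes, and the higher share of 4.55% is under their 12.1%. Single omissions gave 2 to 5 lower, the 5 without WT mouse 3.

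Most genes of DNA replication and licensing were called above WT baseline after PHx, and none was in the resting knockout. In the direct comparison 25 of 74 were lower (33.8%), none was higher, and the median log2 difference was -1.71. After PHx 47 were higher than at WT baseline and 1 lower, while in the knockout none was called higher and 2 were lower (median log2 0.38). By group mean, 55 of the 74 had WT baseline lowest, the knockout next and WT after PHx highest (74.3%, against 18.4% of all genes). The knockouts differed in this list. Its summed level was 571, 567, 393, 419 and 419 CPM in them and 449 to 554 CPM at WT baseline. A missed call does not show equal levels. Ung, which removes uracil from DNA, was at 44.1, 11.7, 10.3, 18.2 and 12 CPM after PHx and 2.92, 2.83, 1.72, 1.95 and 2.82 CPM in the knockout. The groups did not overlap and the log2 difference was -2.97 (SE 0.43, edgeR adjusted p 9.94e-05). Brca1, which acts in repair at forks, was lower in the knockout (log2 -3.45, edgeR adjusted p 0.0109), as was Wdhd1, a replisome adaptor (log2 -2.72, edgeR adjusted p 0.00554). Mcm5, a subunit of the replicative helicase, was at 170.3, 1.91, 14.4, 5.25 and 57.1 CPM after PHx and 9.13, 8.03, 3.52, 5.23 and 3.99 CPM in the knockout. WT mouse 2 lay below every knockout and WT mouse 4 among them. The log2 difference of -3.06 (SE 1.04, edgeR adjusted p 0.0426) was no longer called with any of 7 libraries left out singly, among them WT mouse 1 (log2 -1.72, edgeR adjusted p 0.191). Pcna, the clamp that holds polymerases on DNA, was not called (log2 -1.26, edgeR adjusted p 0.059), but was without WT mouse 2 (log2 -1.45, edgeR adjusted p 0.0412) or 3 (log2 -1.45, edgeR adjusted p 0.034).

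The number of replication genes called depended on which livers were in the group. It was 7 without WT mouse 1 and 12 without WT mouse 5. It was 38 without WT mouse 2. Leaving out EedHepKO mice 7, 10, 11 or 12 gave 14, 10, 11 and 12. Averaged over the 74 genes as log2(CPM + 1), the level was 5.04, 2.04, 2.61, 2.21 and 4.05 in WT mice 1 to 5 after PHx, 2.68, 2.58, 2.10, 2.18 and 2.12 in the knockouts and 1.95 to 2.10 at WT baseline. WT mouse 2 and EedHepKO mouse 10 (2.097, where WT baseline reached 2.102) lay inside the WT baseline range, and WT mice 1 and 5 lay above every knockout. Of the 74 genes, 72, 23, 53, 35 and 69 exceeded every WT baseline library in WT mice 1 to 5, and 52, 46, 27, 35 and 28 did so in the knockouts.

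The average level of mitosis genes was above WT baseline in every resting knockout library, although few single genes were called. Of 102 genes of G2 and mitosis, none was called higher and 7 lower (6.86%, under the share of all genes) in the direct comparison, with a median log2 difference of -2.15. For 1 gene the 95% interval lay within 2-fold either way. After PHx 88 were higher than at WT baseline (median log2 5.55), and in the resting knockout 12 were higher (median 3.35). The latter is 11.8%, near the 11.1% of all genes, so the count says nothing particular of mitosis genes. Averaged as log2(CPM + 1), the level was 3.79, 0.85, 1.97, 0.86 and 5.33 after PHx, 2.80, 2.19, 1.66, 1.92 and 1.46 in the knockouts and 0.82 to 0.95 at WT baseline. WT mice 2 and 4 lay within the WT baseline range, and all 5 knockouts lay above it. WT mouse 3 lay among the knockouts, and WT mice 1 and 5 were the highest of all.

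**Figure D2:**
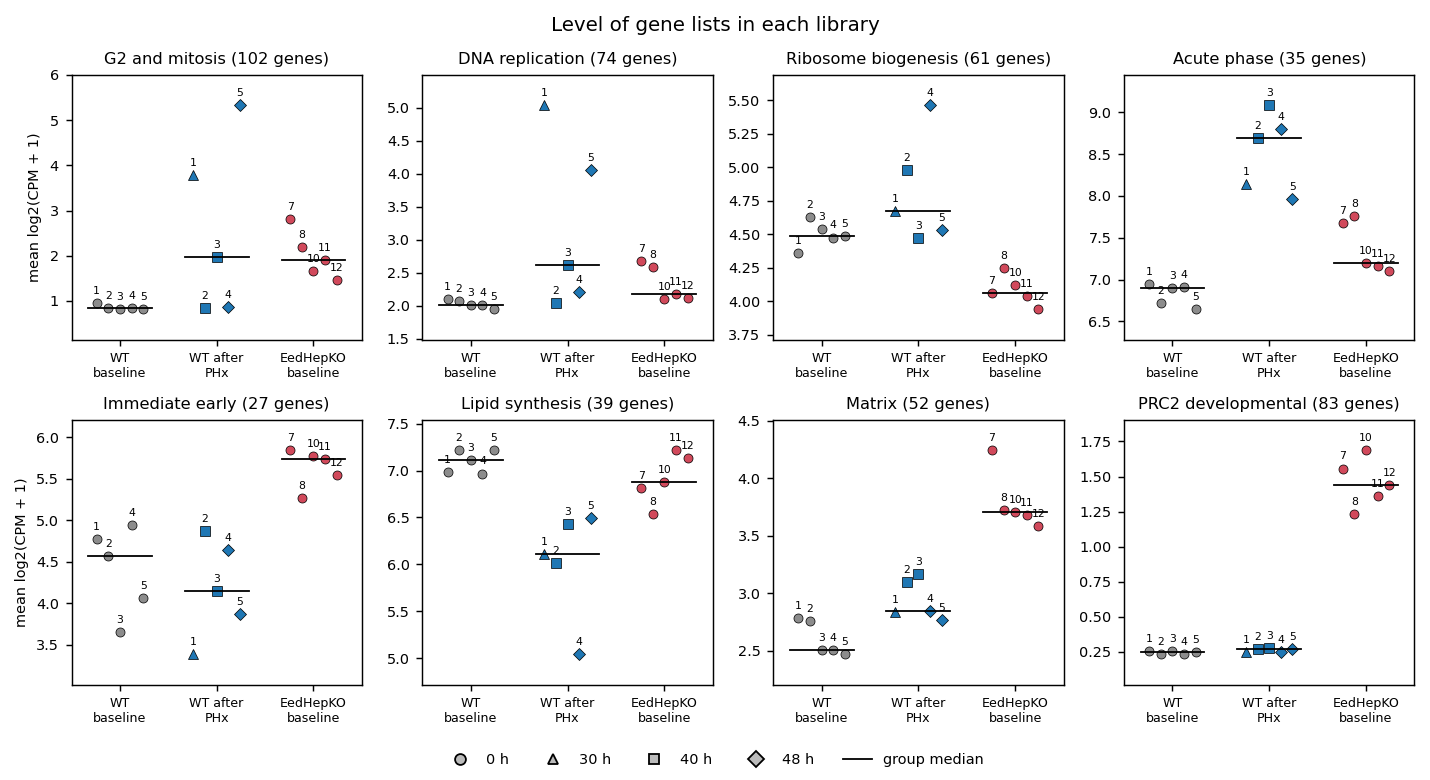
Mean log2(CPM + 1) of the measured genes of 8 lists (panels) in each WT baseline, WT after PHx and EedHepKO baseline library; points are libraries, labelled by mouse, and marker shapes give hours after PHx. In the mitosis panel the 5 knockouts lie between 1.46 and 2.80 and the WT livers after PHx between 0.85 and 5.33.

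Gene by gene, in the knockouts 94, 87, 81, 86 and 75 of the 102 mitosis genes exceeded every WT baseline library, and in WT mice 1 to 5 after PHx 99, 23, 89, 26 and 101 did. Set against the knockout, 100 of the 102 genes in WT mouse 5 and 88 in WT mouse 1 exceeded every knockout library. In WT mice 2 and 4, 77 and 78 lay below every knockout library. Ordered by group mean, 95 of the 102 genes had WT baseline lowest, the resting knockout next and WT after PHx highest, an order held by 18.4% of all genes. The reverse order was held by 1 of the 102 and by 17.2% of all genes. These are descriptions of group means with no test.

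Mki67, a marker of cycling cells, was at 82.3, 0.217, 14.2, 0.284 and 328 CPM after PHx and 34.6, 26.5, 3.38, 4.28 and 2.49 CPM in the knockout, against 0.505 to 1.76 CPM at WT baseline. The knockout lay between WT mice, and the log2 difference of -2.58 (SE 1.34, edgeR adjusted p 0.17) was not called. Top2a, which untangles chromosomes before division, was at 78, 0.217, 10.7, 0 and 116 CPM and 18.1, 14.7, 3.03, 5.07 and 2.35 CPM, a log2 difference of -2.24 (SE 1.30, edgeR adjusted p 0.22). Ccnb1, the cyclin of mitotic entry, was at 9.03, 0, 2.66, 0.0355 and 139 CPM and 9.23, 5.96, 4.14, 5.28 and 2.39 CPM, a log2 difference of -2.48 (SE 1.39, edgeR adjusted p 0.202). Foxm1, a factor that activates mitotic genes, gave log2 -2.23 (edgeR adjusted p 0.144), and was above WT baseline in the knockout (log2 4.16, edgeR adjusted p 0.0404). The intervals of these genes were wide (-5.37 to 0.21 for Mki67), so a missed threshold does not show equal levels. Single omitted libraries moved the list's count of 7 to as few as 1 (without EedHepKO mouse 10) and as many as 11 (without WT mouse 2 or 4). The other omissions that moved it by more than 1.5 times were EedHepKO mice 8 (3), 11 (2) and 12 (2) and WT mice 1 (4) and 5 (2). DESeq2 called 17.

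The comparisons with single time points each rest on 2 WT livers, and these could differ widely. At 48 h the mean log2(CPM + 1) of mitosis genes was 0.86 in WT mouse 4 and 5.33 in WT mouse 5, and that of replication genes 2.21 and 4.05. Set against WT at 40 h, the resting knockout had 1293 genes above (8.82%) and 1114 below (7.6%). Without WT mouse 2 they were 213 and 137, and without EedHepKO mouse 10 the lower count was 691. Against 40 h, 1 mitosis gene and 2 replication genes were lower, with median log2 differences of 0.99 and -0.04. These medians were 0.23 and -0.33 without WT mouse 2 and 3.78 and 0.62 without WT mouse 3. Set against WT at 48 h, it had 1722 above (11.7%) and 1629 below (11.1%). Without WT mouse 4 they were 572 and 634, without WT mouse 5 2426 and 1884, and without EedHepKO mouse 10 the lower count was 1058. Against 48 h, 47 mitosis genes and 26 replication genes were lower, with medians of -2.99 and -1.35. These values rest on WT mouse 5: without it 24 mitosis genes were higher and 1 lower (median log2 3.52), and 3 replication genes were higher and 1 lower (median 0.15). Without WT mouse 4, 94 and 46 were lower. Leaving out single knockouts gave 19 to 49 mitosis and 16 to 28 replication genes lower, with mitosis counts of 19, 21, 20 and 27 without EedHepKO mice 10, 11, 12 and 8 and replication counts of 16 without mouse 10 or 11. A lone liver left at a time point is assumed to vary like the other groups. The 30 h liver was 1 library and had no test of its own; the difference between the time points was not tested.

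**Figure D3:**
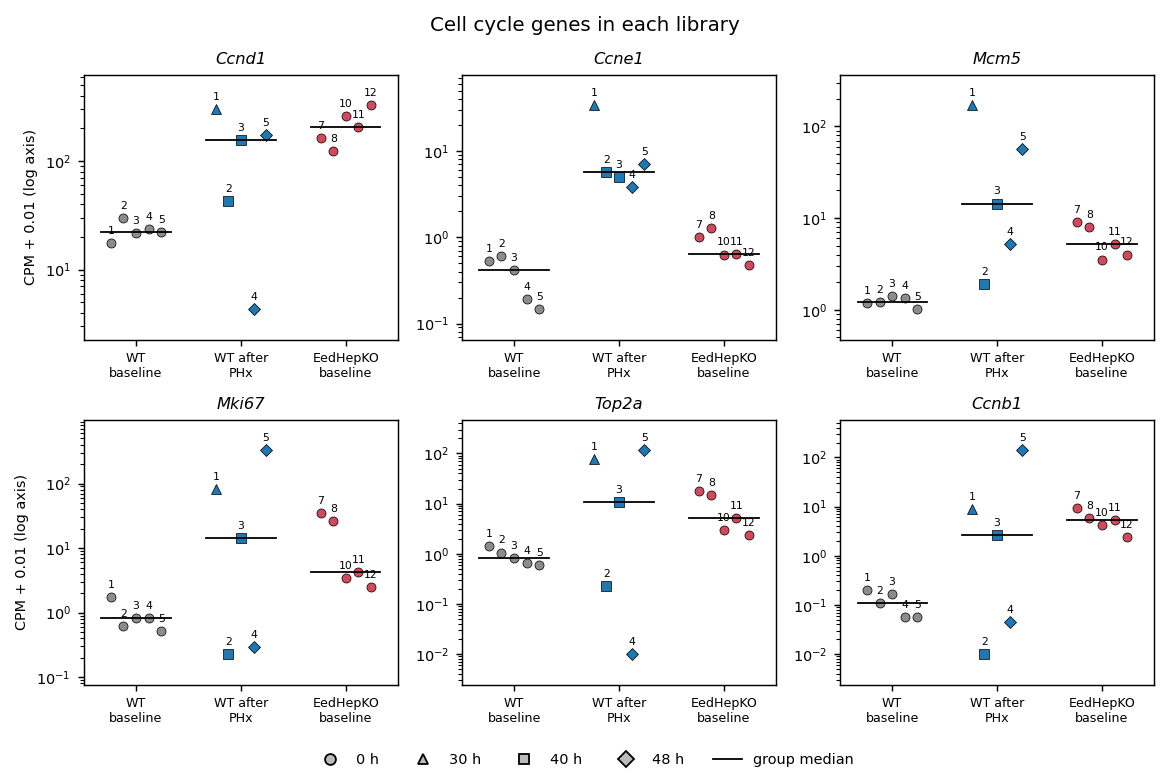
CPM of 6 cell cycle genes (panels, log axis with 0.01 added) in each WT baseline, WT after PHx and EedHepKO baseline library; bars mark group medians and marker shapes give hours after PHx. For Ccnd1 the knockout overlaps the WT livers after PHx, for Ccne1 it lies below every WT library after PHx, and for Mki67, Top2a, Ccnb1 and Mcm5 it lies between WT livers.

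The promoters of mitosis and replication genes are known for different sequence letters, and some are shown here with the share of each list that holds them. RefSeq windows (GRCm38.p6) from 250 bases before to 50 after each start site were searched on both strands for CCAAT, for TTTGAA (the cell cycle homology region, CHR, of late cell cycle genes) and for TTTCCCGC, TTTGGCGC or TTTCGCGC (E2F letters). Windows were found for 84 of the 102 mitosis genes and 58 of the 74 replication genes. CHR letters were in 60 of 92 mitosis windows (65.2%) and 11 of 69 replication windows (15.9%), against 17.9% of all 32851 windows searched. E2F letters were in 8.7% of mitosis, 33.3% of replication and 1.84% of all windows. CCAAT was in 72.8%, 58% and 37.4%. A match is a description and not a bound site. Not all members hold these letters: the Ccnb1 window has CCAAT but no CHR letters, and the Mcm2 and Pcna windows have no E2F letters. The sequences shown were picked among windows that hold them. The first 2 are mitosis genes with CCAAT and CHR letters in capitals, and the third is a helicase gene with E2F letters in capitals, where TTTCGCGC and TTTGGCGC (on the other strand) overlap; its CCAAT letters are left in lower case.
Top2a (chr11:99024140-99024439, minus strand): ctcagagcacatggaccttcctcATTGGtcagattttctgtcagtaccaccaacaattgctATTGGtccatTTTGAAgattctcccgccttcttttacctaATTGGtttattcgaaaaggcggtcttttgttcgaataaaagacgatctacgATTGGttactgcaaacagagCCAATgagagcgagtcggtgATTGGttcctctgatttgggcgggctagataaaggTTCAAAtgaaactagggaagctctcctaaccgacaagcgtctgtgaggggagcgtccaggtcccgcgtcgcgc
Mki67 (chr7:135716330-135716629, minus strand): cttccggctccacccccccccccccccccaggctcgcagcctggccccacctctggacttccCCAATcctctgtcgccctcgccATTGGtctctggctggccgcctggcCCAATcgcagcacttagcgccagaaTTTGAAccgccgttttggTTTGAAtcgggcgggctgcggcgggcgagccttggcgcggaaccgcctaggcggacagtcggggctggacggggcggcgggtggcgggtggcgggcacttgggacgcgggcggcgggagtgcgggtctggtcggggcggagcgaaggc
Mcm5 (chr8:75109259-75109558, plus strand): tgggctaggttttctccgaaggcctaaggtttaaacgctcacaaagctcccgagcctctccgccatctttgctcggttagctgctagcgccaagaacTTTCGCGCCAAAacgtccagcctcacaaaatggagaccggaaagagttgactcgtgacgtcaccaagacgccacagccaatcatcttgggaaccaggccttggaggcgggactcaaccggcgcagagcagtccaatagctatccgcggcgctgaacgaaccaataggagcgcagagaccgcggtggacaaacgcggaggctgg

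Some inhibitors of the cycle were higher in the resting knockout. Of 8 inhibitors of cyclin-dependent kinases, 3 were higher than in regenerating WT liver and none lower. Cdkn2a, a known PRC2 target that halts the cycle in G1, was at 0.262, 0, 0, 0.0709 and 0.412 CPM after PHx and 9.89, 5.16, 8.21, 7.6 and 6.34 CPM in the knockout. The groups did not overlap and the log2 difference was 5.58 (SE 0.66, edgeR adjusted p 1.24e-05). Its neighbour Cdkn2b (log2 2.36, edgeR adjusted p 0.0167) and the imprinted Cdkn1c (log2 3.25, edgeR adjusted p 0.000868) were higher too. Cdkn1a, the p53-induced inhibitor, was at 52.2, 329.7, 104, 305 and 74.7 CPM after PHx and 75.9, 60.0, 59.1, 74.8 and 54 CPM in the knockout, a log2 difference of -1.42 (SE 0.52, edgeR adjusted p 0.0574). WT mice 2 and 4 were the highest, and the gene was called without WT mouse 1 (log2 -1.65, edgeR adjusted p 0.0272), 3 (log2 -1.55, edgeR adjusted p 0.0494) or 5 (log2 -1.60, edgeR adjusted p 0.0392).

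Targets of p53 were divided, with 4 of 30 higher and 3 lower in the resting knockout, close to the background. Pmaip1, a BH3-only death factor, was at 0.0436, 0.565, 1.29, 0.248 and 0.275 CPM after PHx and 9.79, 4.82, 5.55, 3.45 and 2.49 CPM in the knockout (log2 3.42, edgeR adjusted p 0.00626). Btg2, an antiproliferative gene, was higher as well (log2 2.10, edgeR adjusted p 0.014). Mdm2, the ligase that degrades p53, was lower in the knockout (log2 -0.63, edgeR adjusted p 0.00458), as was the nuclease gene Aen (log2 -0.99, edgeR adjusted p 0.00279).

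Most ribosome biogenesis genes were lower in the resting knockout than in regenerating liver. Of 61 genes, 34 were lower (55.7%, against 9.64% of all genes) and none higher than in WT liver after PHx, with a median log2 difference of -0.79. For 26 of the 61 every knockout library lay below every WT library, as for 6.16% of all genes. Against WT baseline, 5 were higher in the WT livers after PHx (8.2%, under the 11.4% of all genes). In the knockout 6 were lower than at WT baseline (9.84%, against 4.89% of all genes). For 47 of the 61 the group means put WT after PHx on top and the knockout lowest, an order held by 20.1% of all genes. Nop56, a core protein of box C/D particles that modify ribosomal RNA, was at 54.1, 30.4, 24.8, 70.5 and 36.3 CPM after PHx and 12, 19.4, 14.6, 14 and 13.4 CPM in the knockout. The groups did not overlap and the log2 difference was -1.56 (SE 0.24, edgeR adjusted p 0.00018). Ftsj3, a pre-ribosome methyltransferase (log2 -1.53, edgeR adjusted p 0.00014), and Ncl, encoding nucleolin (log2 -1.53, edgeR adjusted p 0.00643), were also lower. Rrp1, a processing factor, gave log2 -0.08 (edgeR adjusted p 0.689) with an interval of -0.34 to 0.19, within 2-fold. Without WT mouse 4 the count of lower genes was 17; with library size alone it was 24.

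**Figure D4:**
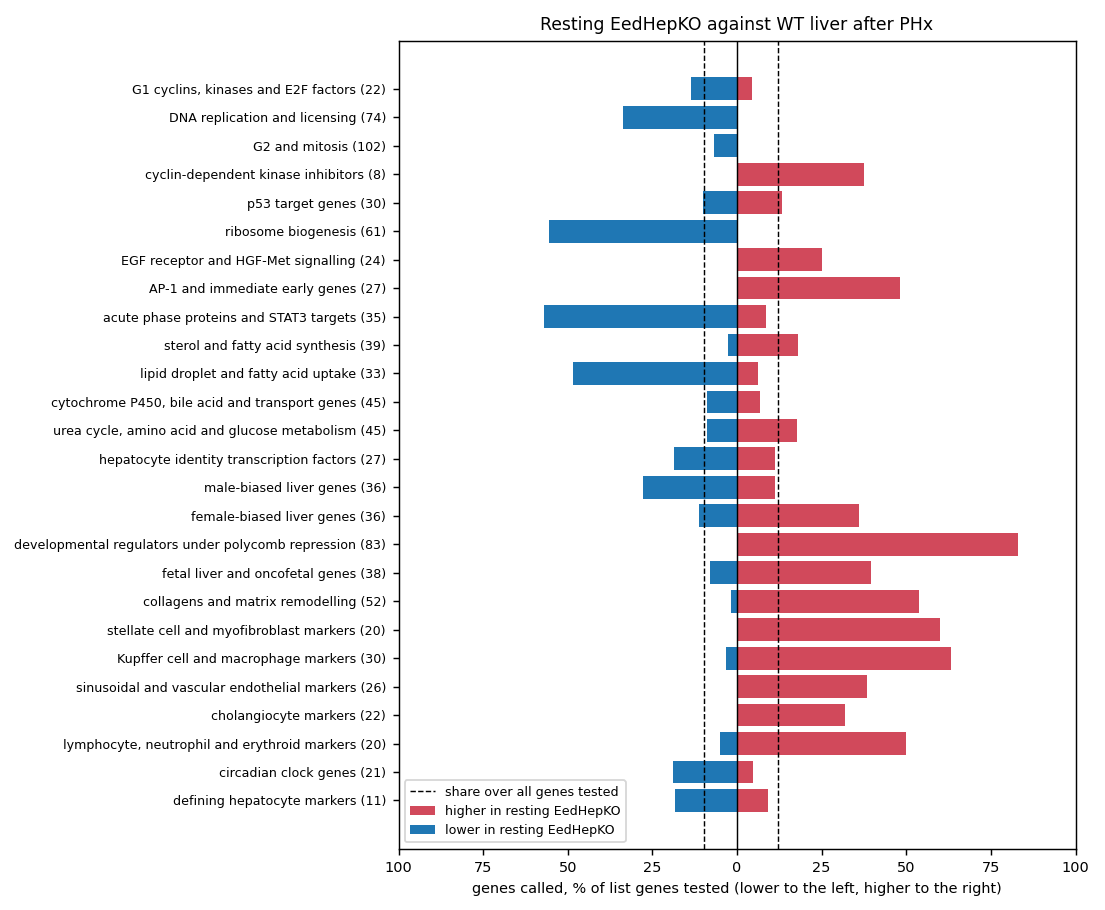
Share of the measured genes of each list called higher (right) or lower (left) in the resting knockout than in WT liver after PHx, at an edgeR adjusted p under 0.05; the number of genes tested follows each name, and dashed lines mark the shares over all 14661 genes, 12.1% and 9.64%. The longest bars are acute phase genes on the left (57.1%) and developmental regulators under polycomb repression on the right (83.1%). The latter share is of the 83 of 171 members that passed the filter. Of these 83, 39 had no count in WT after PHx, so the bar is no test of the list.

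Immediate early genes, which encode factors induced within minutes of a stimulus, were often higher in the resting knockout than 30 to 48 h after PHx. Of 27, 13 were higher and none lower, and 12 had groups that did not overlap. Fos was at 1.05, 7.05, 7.12, 1.74 and 9.79 CPM after PHx and 146, 93.3, 204, 259.7 and 265 CPM in the knockout, a log2 difference of 5.18 (SE 0.80, edgeR adjusted p 0.000163). At WT baseline Fos spanned 2.78 to 78.7 CPM, and it was lower than that after PHx (log2 -3.06, edgeR adjusted p 0.00657). Fosb, a relative of Fos, was higher by log2 6.16 (edgeR adjusted p 0.000195) and Nr4a1, a nuclear receptor, by 5.33 (edgeR adjusted p 2.03e-05). Both were lower after PHx than at WT baseline (log2 -4.90, edgeR adjusted p 0.00134, and -3.96, edgeR adjusted p 0.000357). Over the list the WT response ran both ways, with 8 of 27 higher and 8 lower than at WT baseline, and in the knockout 9 were higher than at WT baseline and none lower. Egr2 was higher in the knockout in both settings (log2 3.63, edgeR adjusted p 0.0052 against WT after PHx and 3.40, edgeR adjusted p 0.00876 against WT baseline). Baseline lobes were taken at the operation and later lobes after death, and the part of sampling in these genes was not tested.

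Of 24 growth factors, receptors and regulators that act on hepatocytes, 6 were higher (25%, against 12.1% of all genes) and none lower in the knockout. Hgfac, the protease that activates hepatocyte growth factor, was at 82.6, 85.9, 70.0, 50.6 and 77.9 CPM after PHx and 118, 128, 158, 165 and 199 CPM in the knockout, with no overlap (log2 1.06, edgeR adjusted p 0.00106). Spry4, a feedback inhibitor of receptor kinases, was higher too (log2 1.67, edgeR adjusted p 0.00158). Met, the receptor of hepatocyte growth factor, gave log2 -0.40 (edgeR adjusted p 0.114), and the ligand Tgfa gave log2 -0.20 (edgeR adjusted p 0.553). Against WT baseline, neither Hgfac (log2 -0.36, edgeR adjusted p 0.226) nor Spry4 (log2 -0.06, edgeR adjusted p 0.929) was called in the knockout. Both were lower after PHx than at WT baseline (log2 -1.43, edgeR adjusted p 0.000129, and -1.73, edgeR adjusted p 0.00157). Over the list, 4 were higher and 3 lower in the knockout than at WT baseline, and 2 higher and 5 lower after PHx.

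Most acute phase genes were lower in the resting knockout than in regenerating liver. Of 35 genes, 20 were lower and 3 higher than in WT liver after PHx (median log2 -1.31), and for 15 every knockout library lay below every WT library. Saa1, a serum amyloid, was at 6472, 3322, 3316, 1407 and 1938 CPM after PHx and 179, 428, 60.9, 66.9 and 51.8 CPM in the knockout. Knockout mice 7 and 8 were the highest of their group, yet below every WT library, and the log2 difference was -4.39 (SE 0.69, edgeR adjusted p 0.0002). Saa2, a near copy that may share its reads, gave log2 -5.02 (edgeR adjusted p 0.000111). Lcn2, which binds bacterial iron carriers, was at 2001, 3931, 3075, 3173 and 419.8 CPM and 107, 86.5, 21.8, 25.1 and 15.6 CPM, a log2 difference of -5.62 (SE 0.79, edgeR adjusted p 6.92e-05). WT mouse 5 was the lowest after PHx and still above every knockout. In the knockout Lcn2 and Saa1 were nonetheless above WT baseline (log2 3.34, edgeR adjusted p 0.0033, and 1.96, edgeR adjusted p 0.0374).

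The 3 genes that were higher in the knockout included A2m and Hamp2. A2m, a protease trap, was at 0 to 0.457 CPM after PHx and 17.4, 16.6, 6.14, 2.49 and 1.5 CPM in the knockout (log2 5.36, edgeR adjusted p 0.000733). Hamp2, a hepcidin copy, was at 0.218, 2.04, 0.609, 2.52 and 0.0687 CPM after PHx and 13.1, 14.3, 52.2, 50.8 and 25.3 CPM in the knockout (log2 4.83, edgeR adjusted p 0.000681), and at 11 to 41.8 CPM at WT baseline. Metallothioneins, which bind zinc and answer stress hormones, were lower in the knockout. Mt2 was at 40.3, 949.9, 709, 1570.2 and 97.3 CPM after PHx and 33, 21.6, 13.6, 13.6 and 10.3 CPM in the knockout (log2 -5.19, edgeR adjusted p 0.00256), with no overlap between the groups, and Mt1 gave log2 -4.91 (edgeR adjusted p 0.00362).

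**Figure D5:**
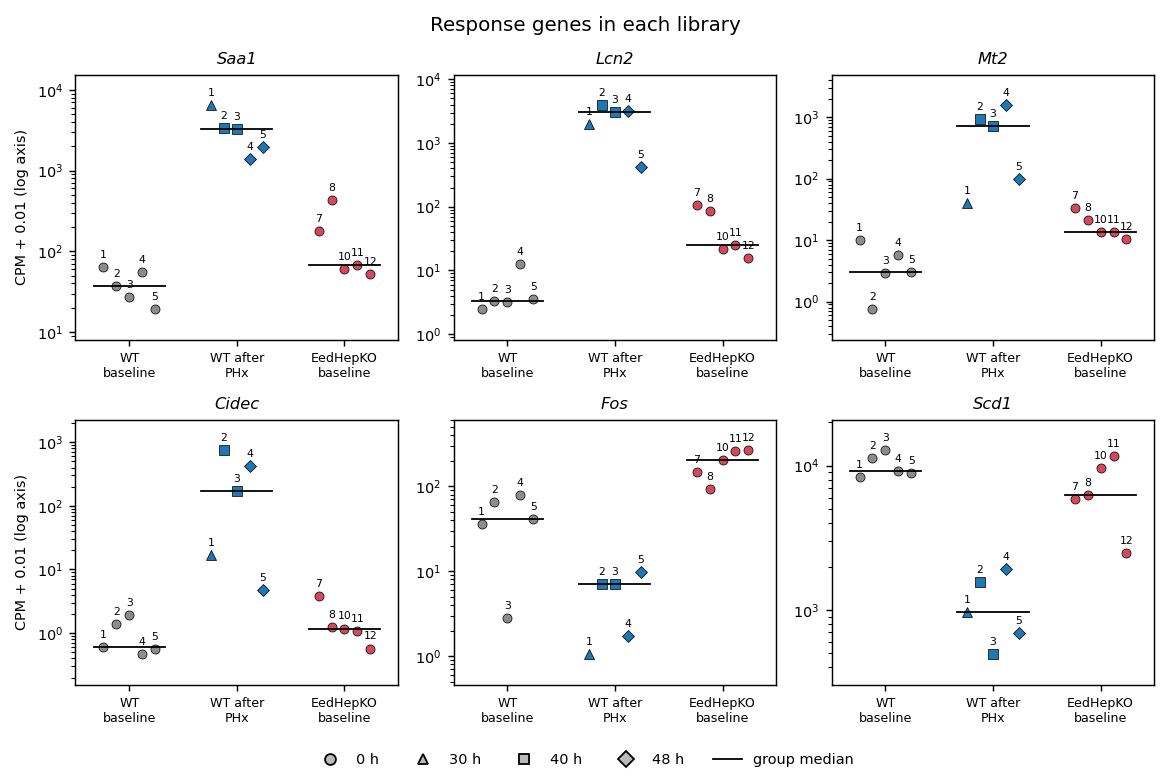
CPM of 6 response genes (panels, log axis with 0.01 added) in each WT baseline, WT after PHx and EedHepKO baseline library; bars mark group medians and marker shapes give hours after PHx. Saa1, Lcn2, Mt2 and Cidec lie lower in the knockout than in every WT library after PHx, and Fos and Scd1 lie higher.

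Clock genes are given as a check on collection times. Of 21, 4 were lower (19%, against 9.64% of all genes) and 1 higher (4.76%, against 12.1%) in the knockout. The lower count was 2 without EedHepKO mouse 10 or 11 or WT mouse 2 or 4, and none was higher without EedHepKO mouse 7, 10 or 11 or WT mouse 2 or 4. Per2, a clock repressor, was at 17.3, 35.7, 14.8, 24.4 and 4.98 CPM after PHx and 3.85, 6.93, 3.76, 7.15 and 5.3 CPM in the knockout (log2 -1.85, edgeR adjusted p 0.00141), and Ciart, another clock repressor, gave log2 -4.31 (edgeR adjusted p 0.00435). The clock time of each collection is not given in the sources used here, and its part in any result was not tested.

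Of the fat synthesis genes called, most were higher in the resting knockout, and of the fat storage genes called, most were lower. Of 39 genes of lipid and sterol synthesis, 7 were higher (17.9%, against 12.1% of all genes), 1 was lower and 31 were not called (median log2 0.61), while WT livers after PHx had 13 lower and none higher than at baseline. Scd1, which desaturates fatty acids, was at 963, 1560.4, 495, 1918 and 689 CPM after PHx and 5837, 6284, 9681, 11708 and 2471 CPM in the knockout. Knockout mouse 12 was the lowest of its group and still above every WT library, with a log2 difference of 2.68 (SE 0.57, edgeR adjusted p 0.00292). Its relative Scd2 was at 6.1, 2.26, 7.19, 0.567 and 5.6 CPM after PHx and 399, 216, 747, 545 and 414 CPM in the knockout (log2 6.74, edgeR adjusted p 3.78e-06), and differed from WT baseline as much (log2 6.71, edgeR adjusted p 2.87e-06). Acss2, which makes acetyl-CoA from acetate, was higher (log2 2.50, edgeR adjusted p 0.00641).

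Of 33 genes of lipid droplets and fat use, 16 were lower and 2 higher in the knockout (median log2 -0.85), with 10 lower when WT mouse 4 was left out. Besides Cidec, Plin4, a droplet coat protein, was at 2.18, 304, 12.3, 118 and 3.06 CPM after PHx and 1.49, 3.63, 1.45, 1.99 and 3.29 CPM in the knockout (log2 -5.22, edgeR adjusted p 0.00327). WT mice 1 and 5 overlapped the knockout in this gene. Fitm1, which aids droplet formation, was lower in the knockout than in both WT groups (log2 -3.42, edgeR adjusted p 0.000123 against WT after PHx and -4.86, edgeR adjusted p 5.6e-06 against WT baseline). Lpl, the lipase that frees fatty acids from lipoproteins, was higher, at 23.1, 5.18, 25.3, 5.28 and 31.2 CPM after PHx and 308, 273, 367, 233 and 177 CPM in the knockout (log2 3.92, edgeR adjusted p 1.65e-05).

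Of 45 glucose and amino acid genes, 8 were higher in the knockout (17.8%; 5 without WT mouse 4) and 4 lower (8.89%), against 12.1% and 9.64% of all genes, so the lower count and the higher one without WT mouse 4 are near the background. Ppp1r3g, a glycogen-targeting subunit of protein phosphatase, was at 0 to 0.354 CPM after PHx and 12.2, 7.44, 16.6, 11.3 and 6.48 CPM in the knockout (log2 6.49, edgeR adjusted p 1.83e-05). Gpt2, an alanine aminotransferase (log2 -2.33, edgeR adjusted p 0.00155), and Mat1a, which makes the methyl donor S-adenosylmethionine (log2 -2.06, edgeR adjusted p 0.00597), were lower.

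Of 45 xenobiotic and bile acid genes, 3 were higher (5 without WT mouse 1, 6 without WT mouse 5) and 4 lower (2 without WT mouse 2). These are 6.67% and 8.89%, under the 12.1% and 9.64% of all genes. Against the WT livers at 40 h, 17 were higher and 6 lower. Cyp2b10 and Cyp2c55, drug-metabolising cytochromes induced by the receptor CAR, were higher in the knockout (log2 3.33, edgeR adjusted p 0.00431, and 3.76, edgeR adjusted p 0.00948). Por, the reductase that supplies electrons to all such cytochromes, was lower (log2 -1.79, edgeR adjusted p 0.00173). Cyp7a1, the rate-limiting enzyme of bile acid synthesis, was at 48.2, 0.0435, 0.457, 0.213 and 70.8 CPM after PHx and 6.94 to 18.5 CPM in the knockout, and was not called (log2 -0.97, edgeR adjusted p 0.647).

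Among 27 hepatocyte transcription factors, 3 were higher and 5 lower in the resting knockout (3 lower without EedHepKO mouse 11 or 12). The higher share of 11.1% is near the 12.1% of all genes; the lower share is 18.5% against 9.64%, and near it without either of those mice. Zbtb20, a repressor of fetal liver genes (log2 -1.39, edgeR adjusted p 0.00519), and Prox1 (log2 -1.03, edgeR adjusted p 0.019) were lower. Stat5b, which carries growth hormone signals, was higher in the knockout (log2 1.00, edgeR adjusted p 0.0022), where it was near WT baseline (log2 -0.05, edgeR adjusted p 0.896).

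Male-biased liver genes were mostly below WT baseline in both groups. Of 36, 29 were lower after PHx and 22 lower in the knockout than at WT baseline, and 10 were lower (27.8%) and 4 higher (11.1%, near the share of all genes; 7 without WT mouse 1) in the direct comparison. Against 40 h, 9 were lower and 11 higher. Mup12, a major urinary protein, was at 117, 144, 81.6, 197 and 86.9 CPM after PHx, 15.4, 33, 19, 8.81 and 13.2 CPM in the knockout and 218 to 462 CPM at WT baseline. The knockout lay below every WT liver (log2 -2.81, edgeR adjusted p 0.00031), though Mup genes are near copies whose reads may be divided. Of 44 female-biased genes, 36 passed the filter, 13 of them higher and 4 lower in the knockout; 3 of these had no count in WT after PHx and passed only through other libraries. Over all 44, pooled counts were higher in the knockout for 29, lower for 13, and 2 had no count. Sult2a1, a sulfotransferase, was at 0 to 0.0435 CPM after PHx and 35.3, 38.6, 21.2, 4.57 and 28.9 CPM in the knockout (log2 9.49, edgeR adjusted p 1.51e-06). The neurotrophin receptor gene Ntrk2 was at 1, 0.131, 2.97, 0.0709 and 0.79 CPM and 143, 157, 154, 128 and 106 CPM (log2 7.11, edgeR adjusted p 2.03e-06).

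Most measured developmental regulators that PRC2 silences were higher in the resting knockout than in regenerating liver. Of 171 such genes, 83 passed the filter on low counts and 69 of these were higher, none lower. A gene silent in WT passes the filter only through the knockout libraries, so this count describes those that passed and is no test of the list. Over all 171, pooled counts scaled to library size were higher in the knockout for 133, lower for 6, and 32 had no count in either group. Among the 83, 39 had no count in WT after PHx, and the median log2 difference was 6.22, or 4.44 with those genes at their bound. After PHx 2 of the 83 were above WT baseline. Hoxc10, a homeobox factor of body patterning, was at 5.44, 2.37, 5.38, 5.11 and 5.26 CPM in the knockout (bound at least 206-fold higher). Hoxc10 overlaps Hoxc5 on the same strand, so those reads are uncertain. The first of 2 RefSeq promoter windows of Hoxa10 is shown with its CpG pairs, the sites of DNA methylation, in capitals. It has 12 CpG pairs and the other window 21. The median was 20 over 125 windows of 111 PRC2-silenced genes and 7 over all windows searched.
Hoxa10 (chr6:52240805-52241104, minus strand): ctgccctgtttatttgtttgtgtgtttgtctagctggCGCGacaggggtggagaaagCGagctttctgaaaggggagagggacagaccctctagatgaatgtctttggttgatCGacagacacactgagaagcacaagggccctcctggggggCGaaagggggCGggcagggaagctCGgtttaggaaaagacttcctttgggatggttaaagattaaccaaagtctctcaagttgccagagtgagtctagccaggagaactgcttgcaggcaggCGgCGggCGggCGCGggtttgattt

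Of 40 genes of fetal liver and tumours, 38 were tested, and 15 were higher in the knockout (39.5%) and 3 lower (7.89%, under the share of all genes; 5 without WT mouse 5). Of those tested, 1 had no count in WT after PHx and passed the filter only through other libraries. Over all 40, pooled counts were higher in the knockout for 29, lower for 10, and 1 had no count. Igf2bp3, an RNA-binding protein of fetal tissues, was at 0.305, 0.261, 0.381, 0.0355 and 0.172 CPM after PHx and 16.9, 15.5, 25.5, 16.8 and 21.6 CPM in the knockout, a log2 difference of 6.38 (SE 0.49, edgeR adjusted p 1.06e-06). It was at 0 in all WT baseline livers. Igf2bp1, its relative, had no count in WT liver and 3.62, 1.99, 2.93, 1.45 and 1.97 CPM in the knockout, at least 107-fold higher. Afp, the fetal counterpart of albumin, was at 6.24, 4.7, 14.9, 0.354 and 3.5 CPM after PHx and 1.33, 1.35, 0.552, 0.706 and 1.41 CPM in the knockout, and was not called (log2 -2.47, edgeR adjusted p 0.0671) except without WT mouse 4 (log2 -2.77, edgeR adjusted p 0.0453) and under 3 other settings. Aldoa, the fetal and muscle aldolase, was lower in the knockout (log2 -1.10, edgeR adjusted p 0.00415). Lin28b, a regulator of developmental timing, was not tested, with 2 counts over the WT libraries after PHx and 8 over the knockouts, a ratio of 4.04 (exact 95% interval 0.807 to 39.1, counting error only). EedHepKO mouse 7 held most of these, with 0.199 CPM, where the other knockouts had 0 to 0.0423 CPM.

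Many genes of non-parenchymal cells and matrix were called higher in the resting knockout than in regenerating WT liver. In bulk tissue a change in the number of cells of a type and in RNA per cell cannot be told apart. Of 52 matrix genes, 28 were higher (53.8%, against 12.1% of all genes) and 1 lower. Their summed levels overlapped, at 2752 to 4262 CPM after PHx and 2967 to 4157 CPM in the knockout. Fbln1, a matrix glycoprotein, was at 0.567, 0.174, 0.228, 0.142 and 0.275 CPM after PHx and 15.8, 5.45, 15.4, 9.22 and 11.9 CPM in the knockout (log2 5.37, edgeR adjusted p 3.8e-06). Ccn1, a matrix protein and target of YAP, was at 9.94, 16.9, 12.1, 9.78 and 17.3 CPM and 196, 82, 214, 130.3 and 225 CPM (log2 3.68, edgeR adjusted p 6.29e-05). Col1a1, the main fibrillar collagen, was at 7.98, 7.44, 14.6, 4.15 and 11.6 CPM and 44.6, 13.1, 14.3, 11.6 and 11 CPM. Knockout mouse 7 was the highest, and the gene was not called (log2 1.05, edgeR adjusted p 0.103).

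Of 20 stellate cell markers, 12 were higher (60%, against 12.1% of all genes) and none lower. Their summed levels were 447 to 570.1 CPM after PHx and 880.2 to 1141 CPM in the knockout. Hand2, a stellate cell factor also in the list of PRC2-silenced developmental regulators, was at 2.92, 6.65, 2.02, 9.47 and 4.43 CPM after PHx and 13.1, 18.9, 19.2, 21.8 and 19.1 CPM in the knockout (log2 1.85, edgeR adjusted p 0.00068). Of 30 macrophage markers, 19 were higher (63.3%) and 1 lower, with sums of 266 to 895 and 1111 to 1881 CPM. H2-Aa, which presents antigen, was at 3.27, 6.48, 10.3, 3.51 and 2.16 CPM after PHx and 94, 77.7, 58.9, 50.8 and 52 CPM in the knockout (log2 3.69, edgeR adjusted p 2.01e-05). Its chaperone gene Cd74 was higher too (log2 3.49, edgeR adjusted p 2.33e-05), and in both genes every knockout lay above every WT library. Marco, a scavenger receptor, was the macrophage gene lower in the knockout (log2 -2.50, edgeR adjusted p 0.0128), and it was above WT baseline after PHx (log2 3.89, edgeR adjusted p 0.00122).

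Of 26 endothelial markers, 10 were higher (38.5%, against 12.1% of all genes) and none lower, with sums of 291 to 484 and 622 to 743 CPM. The higher count was 5 without WT mouse 4. Fcgr2b, an Fc receptor of sinusoidal endothelium, was at 24.4, 15.6, 28.7, 12.5 and 20.8 CPM and 50.6, 64.5, 61, 62.4 and 47.7 CPM (log2 1.49, edgeR adjusted p 0.000762). Against WT baseline, 4 of the 26 were higher (15.4%, against 11.1% of all genes) and none lower in the knockout, and 3 higher and 4 lower after PHx. Of 22 cholangiocyte markers tested, 7 were higher (31.8%) and none lower in the direct comparison, with overlapping sums of 372 to 610.3 and 564 to 960.4 CPM. Prom1, a membrane protein of bile duct and progenitor cells, was at 0.349, 0.261, 0.381, 0.461 and 0.652 CPM and 21.4, 8.71, 16.6, 14.2 and 16.6 CPM (log2 5.17, edgeR adjusted p 7.62e-08), and Cldn7, a tight junction protein of ducts, gave log2 5.91 (edgeR adjusted p 8.23e-05). Of 29 lymphocyte, neutrophil and erythroid markers, 20 passed the filter, 10 of them higher (50%) and 1 lower in the direct comparison. Over all 29, pooled counts were higher in the knockout for 18 and lower for 11, with overlapping sums of 160.0 to 439 and 206 to 306 CPM. Against WT baseline, 9 of the 20 were lower after PHx (45%, against 8.68% of all genes) and 3 higher. In the knockout 3 of the 20 were higher than at WT baseline (15%, against 11.1% of all genes) and 1 lower. The T cell gene Trbc1 was the marker with no count in WT after PHx, and the neutrophil genes Ly6g and Elane had none in the knockout. The part of cell composition in the results above was not tested.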

How the data were processed

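Gene counts per library were used as the authors deposited them: whole-number counts for 46603 Ensembl identifiers, of which 46091 are in GENCODE M21. Per the labels, liver polyA RNA was made into TruSeq libraries, and uniquely mapped reads on mm10 were counted. Per the series' design text, reads were trimmed with fastp 0.20.0 and checked with FastQC 0.11.5, while the submitters' processing notes name Trimmomatic 0.36. The aligner, counter, annotation and strand setting are not given in the sources used here.

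Genes were filtered with filterByExpr over the 4 groups, scaled by TMM and tested with edgeR 4.0.16 (R 4.3.3) by its two-sided quasi-likelihood test, with 1 mean for each group of genotype and stage in a fit of all 20 libraries and Benjamini-Hochberg adjustment over 14661 genes (threshold 0.05). CPM values use TMM library sizes. P-values rest on the spread between libraries within groups, all from mice of these colonies. In the main fit each group after PHx pools its collection times, so its spread mixes time after PHx with differences between mice. Baseline and later samples of the same mouse were treated as independent, except in the fit with a mouse block. For the 40 h and 48 h comparisons each genotype had its own mean at each time point.

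Alternatives were library size alone, RLE size factors, DESeq2 1.42.0, no filter, at least 1 CPM in 5 libraries, only the 10 libraries compared, the mean of time point means, a log2 threshold of 1, single omitted libraries and, for the WT response, a mouse block. Baseline and later WT samples came from the same animals; over the 4 WT pairs with mouse numbers in both titles, deviations from the group means correlated at 0.016 to 0.078.

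The genes named were the 12 highest and 12 lowest called protein-coding genes with at least 1 CPM in the higher group and no overlap, up to 4 called in each direction and 4 not called with the narrowest intervals in each list, and a set of fixed names. From these the text describes the members whose calls bear on each list; some are not reported here. Ly6g and Elane are named as markers without counts, chosen after their values were seen. The members and lists were chosen with earlier results of these data known, and no list was tested as a set. Some genes are in more than 1 list, among them Hand2, Prom1, Hamp2, Igf2bp1, Igf2bp3, Fitm1 and Scd2, so the lists are not independent.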

Additional observations from a re-analysis of the deposited data

Results flagged for a closer look

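Within each group of 5 libraries, the highest or lowest value was set against the others by Dixon's rule (a gap above 0.71 of the range), over 234 groups of named genes and list levels; 18 passed, where chance gives about 1 in 20. Their causes were not tested. EedHepKO mouse 7 held 6 of them. It was the highest resting knockout in the matrix list level (mean log2(CPM + 1) of 4.24), in Col1a1 (44.6 CPM), in the antigen-presentation gene Cd74 (202 CPM), in Cidec (3.88 CPM) and in Lin28b (0.199 CPM), and the lowest in Fitm1 (0.232 CPM). Among the other knockouts, mouse 8 was the lowest in Hoxc10 (2.37 CPM), mouse 10 the highest in Spry4 (18.7 CPM) and mouse 12 the highest in the lipid droplet list level (5.36).

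Among WT livers after PHx, mouse 1, the only one taken at 30 h, was the highest in the genes of DNA synthesis Ccne1 (34 CPM), Pcna (168 CPM) and Ung (44.1 CPM), and the only one with no count of Sult2a1 (0 CPM). Mouse 5, at 48 h, was the highest in Ccnb1 (139 CPM), Mki67 (328 CPM) and Cyp2c55 (75.2 CPM). Mouse 4, also at 48 h, was the highest in Nrg4 (138 CPM) and Egr2 (2.69 CPM).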

How the results depend on the processing

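Of the genes named and tested in the direct comparison, 73 of the 74 called kept their call under 17 alternatives, the exception being Mcm5. These alternatives leave out the log2 threshold, which was applied only to counts over all genes. Some called genes, such as Mdm2 (log2 -0.63), lie under it. Of 16 genes not called, 13 were called under none, the exceptions being Afp, Cdkn1a and Pcna. No called gene changed sign. Scaling by library size alone gave 751 genes lower in the direct comparison, 542 against 40 h and 1080 against 48 h, 14 replication and 2 mitosis genes lower, 3796 higher and 582 lower in the WT response, and 3521 higher and 113 lower between resting genotypes. Requiring an absolute log2 difference of at least 1 left 656, 788 and 225 genes lower in the direct comparison, the WT response and the resting comparison. DESeq2 called 46 replication and 17 mitosis genes lower, the mean of the time point means 49 replication genes, and the fit without a filter 4 mitosis genes; without a filter 345 genes were lower between resting genotypes. Fits of only the 10 libraries compared called 14 replication and 3 mitosis genes lower, and 2846 genes higher and 2396 lower between resting genotypes. The cause of these moves was not tested.

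With single libraries left out, the direct comparison held 1313 to 1774 genes higher and 812 to 1460 lower, the WT response 1236 to 1848 and 755 to 1363, and the resting comparison 1234 to 1514 and 309 to 724. Against 40 h the ranges were 213 to 1421 and 137 to 1282, and against 48 h 572 to 2426 and 634 to 1884. Replication genes lower ranged from 7 to 38, mitosis genes from 1 to 11, ribosome biogenesis genes from 17 to 37 and lipid droplet genes from 10 to 16; list counts of 2 or fewer moved by at most 2. The labels say that the excised lobes of a mouse are its baseline, so equal numbers pair the WT samples. With the mouse as a replicate block the WT response held 889 genes higher and 1104 lower. The title of 1 WT baseline sample holds no mouse number, so it and WT mouse 1 after PHx entered that fit unpaired. List counts for the WT response come from the fit without the block and were not repeated with it. The direct comparison is between different mice, so no block applies to it. Each group has 5 libraries, and wide intervals of variable genes, such as mitosis genes, limit what a missed threshold shows.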

Other observations

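The 5 resting knockouts differed among themselves in proliferation and acute phase genes. As mean log2(CPM + 1), mice 7 and 8 had the highest resting knockout levels of the mitosis list (2.80, 2.19, 1.66, 1.92 and 1.46 in mice 7, 8, 10, 11 and 12), of the replication list (2.68, 2.58, 2.10, 2.18 and 2.12) and of the acute phase list (7.67, 7.76, 7.19, 7.16 and 7.10, against 6.65 to 6.95 at WT baseline and 7.97 to 9.09 after PHx). The summed acute phase level, which the most abundant genes set, was 26729 to 41644 CPM in the knockout and 36157 to 38823 CPM at WT baseline. In the same order of mice, Mki67 was at 34.6, 26.5, 3.38, 4.28 and 2.49 CPM and Lcn2 at 107, 86.5, 21.8, 25.1 and 15.6 CPM. Ccnd1 ran otherwise, at 164, 123, 258, 206 and 327 CPM, lowest in mouse 8 and next lowest in mouse 7. Macrophage markers, summed, were at 1881, 1422, 1233, 1111 and 1123 CPM, and mouse 7 also had the highest mean log2(CPM + 1) of matrix and cholangiocyte genes (4.24, 3.72, 3.70, 3.68 and 3.58 and 3.97, 3.49, 3.59, 3.59 and 3.32); their part in these values was not tested. These differences were noticed in the data, the mice carry no label that separates them, and no comparison between them was made.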
